A study of Mus musculus with 6 samples.

Results

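Mdm2, Gadd45b and Gadd45g are stress genes linked to p53, and they are described here across 6 mouse brain samples. They were chosen by gene symbol, and they are 3 of the 88 genes in the deposited senescence table. All 3 were among the 66 genes whose signal averaged at least 1. Poly(A) RNA was sequenced from 3 samples labelled young brain and 3 labelled aged brain, each with neuroblast as the cell type. Neuroblasts are immature, migrating neurons. The labels of both groups also carry a tamoxifen injection followed by the collection of tissues to count tdTomato+ NK cells. They do not link that treatment to the sequenced RNA, and strain, age and the driver of the reporter are not stated. Nothing says that each sample is a separate animal, so p-values cover only sample-to-sample spread, part or all of which may be technical.

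When p53 is active it switches on Mdm2, and the MDM2 protein, a ubiquitin ligase, marks p53 for destruction, so that the pair forms a negative feedback loop. Gadd45b and Gadd45g belong to a family of small stress-induced proteins, with Gadd45a, the classical p53 target, as the third member. GADD45 proteins bind the cell cycle inhibitor p21 (the product of Cdkn1a), the replication clamp PCNA and the CDK1 and cyclin B complex, and they can activate a kinase upstream of p38 and JNK. NF-kB and TGF-beta signalling are known inducers of Gadd45b. In adult brain Gadd45b is also known as a gene that neuronal activity induces, with a part in DNA demethylation and neurogenesis.

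The 250 bases before the annotated start of each gene are shown because the 2 GADD45 genes, relatives with unlike values in these samples, could share promoter letters that Mdm2 lacks. The sequences are from RefSeq on GRCm38.p6 and were matched by Entrez ID for 3 of 3 genes. The sources used here do not give the build of the deposited values. Capitals mark 3 elements, searched on both strands. The E-box was searched as CACGTG. The CCAAT box was searched by those letters. The letters searched for the TATA box were TATAAA. No match overlaps another.
Mdm2 (chr10:117710759-117711008, minus strand): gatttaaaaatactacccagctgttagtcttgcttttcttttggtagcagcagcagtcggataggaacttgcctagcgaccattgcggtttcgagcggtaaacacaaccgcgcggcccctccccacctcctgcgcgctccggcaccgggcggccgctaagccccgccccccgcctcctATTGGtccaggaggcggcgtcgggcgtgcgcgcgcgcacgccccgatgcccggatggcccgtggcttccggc
Gadd45b (chr10:80929841-80930090, plus strand): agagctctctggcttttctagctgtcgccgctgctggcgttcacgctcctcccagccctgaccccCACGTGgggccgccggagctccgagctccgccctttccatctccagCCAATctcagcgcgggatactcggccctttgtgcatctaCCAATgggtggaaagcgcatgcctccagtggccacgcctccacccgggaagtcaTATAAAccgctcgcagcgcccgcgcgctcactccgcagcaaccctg
Gadd45g (chr13:51846425-51846674, plus strand): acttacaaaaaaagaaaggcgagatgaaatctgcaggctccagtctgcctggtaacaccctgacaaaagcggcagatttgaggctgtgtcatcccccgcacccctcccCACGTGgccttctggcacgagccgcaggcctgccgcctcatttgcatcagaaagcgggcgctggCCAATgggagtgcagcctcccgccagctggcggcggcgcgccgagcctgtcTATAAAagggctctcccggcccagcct

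Gadd45b and Gadd45g each held 1 E-box and 1 TATA box in this window, and Mdm2 held neither. An E-box was present in 6.02% and a TATA box in 12.4% of the 32841 promoter windows of this length. The TATA box began 46 bases before the start of Gadd45b and 27 bases before that of Gadd45g. The CCAAT box, found in 33.9% of windows, was present in all 3 genes, with 2 copies in Gadd45b. The GC box GGGCGG, found in 32.7% of windows, was present in 2 copies in Mdm2, 1 in Gadd45b and 0 in Gadd45g. The p53 half-site consensus, found in 7.13% of windows, had 1 match in the Mdm2 window and none in the windows of the GADD45 genes. The p53-responsive promoter known for Mdm2 lies in its first intron, outside this window. The NF-kB consensus (3.9% of windows), an AP-1 site searched as TGANTCA (6.75%) and a cyclic AMP response element (TGACGTCA, 1.55%) matched in none of the 3. These are matches of letters, and binding was not measured.

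Mdm2 was the member with the smallest spread between aged samples. The signal is the expression value deposited by the authors, with no unit named. For Mdm2, young replicates 1 to 3 read 20.12, 17.84 and 15.89, and aged replicates 1 to 3 read 23.77, 22.6 and 20.37. Each aged sample was above each young sample, by a margin of 0.25 between the lowest aged and the highest young sample. The aged mean was 22.2 ± 1.73 and the young mean 17.95 ± 2.12 (SD, n = 3 each), a ratio of 1.24. Of the 66 tested genes, 4 (6.06%) had all aged above all young samples, and Mdm2 was 1 of them. All genes of the table have a higher aged than young mean, so the table itself fixes the direction of the 3-sample means.

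Gadd45b differed mostly within the aged group. Young replicates 1 to 3 read 6.11, 7.34 and 7.06, and aged replicates 1 to 3 read 17.9, 5.19 and 3.78. Aged replicate 1 was the highest of the 6 samples, at 2.62 times the young mean, whereas aged replicates 2 and 3 were the lowest, with a mean of 0.656 times the young mean. The aged mean of 8.96 ± 7.78 exceeded the young mean of 6.84 ± 0.645 (SD, n = 3 each) only through aged replicate 1. The highest aged value was 4.74 times the lowest, against 1.20 times among young samples. This order, aged replicate 1 above and the other aged samples below all young samples, was found in 6 of 66 genes (9.09%).

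Gadd45g had the reverse arrangement among the aged samples. Young replicates 1 to 3 read 24.92, 21.21 and 16.39, and aged replicates 1 to 3 read 18.77, 30.82 and 26. Aged replicates 2 and 3 exceeded every young sample, and aged replicate 1 lay inside the young range. The aged mean was 25.2 ± 6.07 and the young mean 20.8 ± 4.28 (SD, n = 3 each). In 25 of 66 genes (37.9%) aged replicates 2 and 3, but not 1, were above all young samples.

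**Figure D1:**
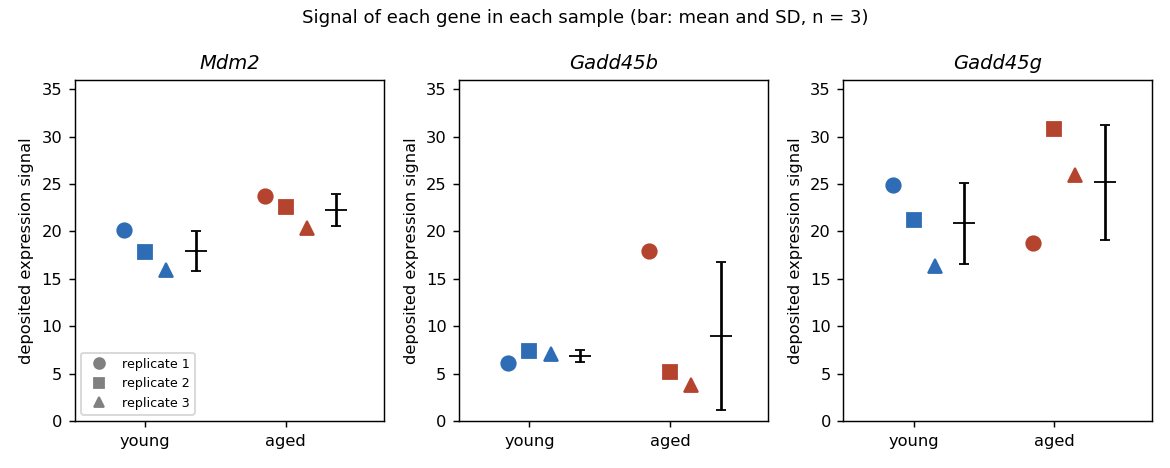
Deposited expression signal (vertical axis, no unit named) of Mdm2, Gadd45b and Gadd45g in the young and aged samples, 1 point per sample, with the mean and SD beside each group (n = 3). All aged points lie above all young points for Mdm2, whereas the aged points of Gadd45b run from 3.78 to 17.9, on both sides of the young points.

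None of the 3 genes passed the test of aged against young samples. With limma on log2(signal + 1), 0 of 66 genes (0%) passed a 5% false discovery rate with Benjamini-Hochberg adjustment over all tested genes, and 3 (4.55%) were under an unadjusted p of 0.05, none of them a member. The log2 change of Mdm2 was 0.30 (SE 0.215, 95% interval −0.21 to 0.80, limma adjusted p = 0.994, range over all settings 0.0304 to 0.999). That of Gadd45b was 0.076 (SE 0.505, interval −1.11 to 1.26, limma adjusted p = 0.994, range 0.0304 to 0.999). That of Gadd45g was 0.25 (SE 0.278, interval −0.40 to 0.91, limma adjusted p = 0.994, range 0.0628 to 0.999). The median log2 change of all 66 genes was 0.12. Setting the library medians, taken over these 66 genes, equal lowered every change by 0.21. Every gene of the table has a higher aged mean, so part of that shift can come from the choice of genes, which was not tested. With medians equal, Mdm2 was at 0.091, Gadd45g at 0.047 and Gadd45b at −0.13. The Mdm2 groups then overlapped, with young replicate 1 above aged replicates 2 and 3, and 2 of 66 genes (3.03%) had all aged above all young samples. Gadd45g lost its order as well, with aged replicate 3 below young replicate 1 and aged replicate 1 just below all young samples. Gadd45b kept aged replicates 2 and 3 below all young samples.

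The authors' deposited table gives all 3 genes as higher in aged brain, with log2 ratios of 0.33 for Mdm2, 0.34 for Gadd45b and 0.30 for Gadd45g. The q-values in the authors' deposited table were 6.67e-19, 0.000809 and 1.92e-06. The sources used here do not name the test. Of 85 genes with a q-value in the authors' deposited table, 54 (63.5%) were under 0.05. For Gadd45b the deposited direction is that of aged replicate 1 and the opposite of aged replicates 2 and 3. Gadd45a was listed in the authors' deposited table with a log2 ratio of 0.13 and a q-value of 0.335.

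Over the table as a whole, aged replicate 1 was the library least like the rest. Its log2 values correlated with those of the other aged samples at r = 0.737 and 0.723 across the 66 genes, which are not independent replicates, against 0.992 between aged replicates 2 and 3 and 0.962 to 0.993 among young samples. The summed signal of the 88 genes ran from 1900 to 2992, and library depth is unknown.

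The 3 members took different places in that split. Gadd45b lay 1.27 above the young mean in aged replicate 1 and 0.52 below it in the mean of aged replicates 2 and 3, on the log2(signal + 1) scale. Mdm2 was above the young mean in both, by 0.39 and 0.25. Gadd45g was 0.12 below it in aged replicate 1 and 0.44 above it in the other aged samples. Counted by how little aged replicate 1 differed from the other aged samples, Mdm2 ranked 5, Gadd45g 21 and Gadd45b 56 of 66. The median size of that difference over all genes was 0.84, against 0.14 for Mdm2 and 1.80 for Gadd45b.

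**Figure D2:**
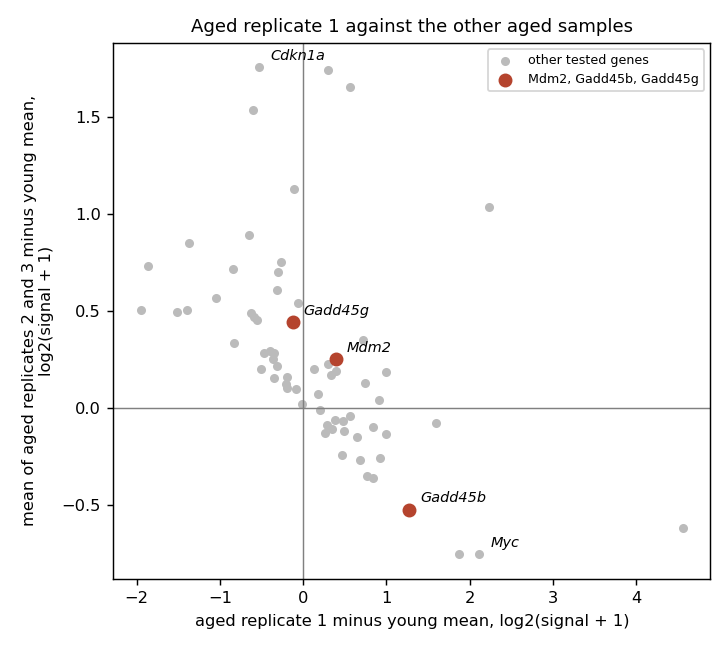
Each point is 1 of 66 tested genes, with the difference of aged replicate 1 from the young mean on the horizontal axis and that of the mean of aged replicates 2 and 3 on the vertical axis, both in log2(signal + 1). Mdm2 is among 13 genes above 0 on both axes, Gadd45b is among 21 genes at lower right and Gadd45g among 32 at upper left. Below 0 on both axes lie 0 genes, in a table where every gene has a higher aged mean.

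Without aged replicate 1, the 2 GADD45 relatives had log2 changes of opposite sign, and no member passed the test. Limma then called 15 of 66 genes (22.7%), 14 higher (21.2%) and 1 lower (1.52%). Gadd45b was at −0.52 (log2 change, SE 0.208, limma adjusted p = 0.121). Both its remaining aged samples were below all young samples, as in 6 of 66 genes (9.09%). Gadd45g had a log2 change of 0.44 (SE 0.191, adjusted p = 0.149) and Mdm2 one of 0.25 (SE 0.151, adjusted p = 0.276), each with both remaining aged samples above all young samples as deposited, but not with library medians equal. The median over all genes in that fit was 0.20. Cdkn1a was called higher, at 1.76 (SE 0.158, limma adjusted p = 0.000511). Every gene of the table has a higher 3-sample aged mean, which favours positive values for Mdm2 and Gadd45g here. Gadd45b has that higher mean only through its level in aged replicate 1.

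The call on Gadd45b and on Mdm2 depended on how the 5 remaining libraries were scaled, in settings added after the data were seen. The library medians were those of the tested genes, all from a table in which every gene has a higher aged mean. Setting them equal can thus lower aged values through that choice of genes, which was not tested. With library medians also set equal, Gadd45b was called lower, at −0.76 (SE 0.190, limma adjusted p = 0.0445). It was 1 of 4 genes called lower (6.06%), beside 5 called higher (7.58%), and Mdm2 was at 0.014. In that scaling of all 6 libraries, aged replicates 2 and 3 were below all young samples in 17 genes (25.8%). Instead, a linear dependence on GC content and log2 transcript length was taken out of each library. It was fitted across 62 genes of this same table, the members included. The trend can thus hold part of an age difference of these genes, which was not tested. Gadd45b was then at −0.90 (SE 0.163) and Mdm2 at 0.41 (SE 0.0778), both called, with a limma adjusted p of 0.0304. That fit called 6 of 62 genes (9.68%), 5 higher (8.06%) and 1 lower (1.61%). Gadd45g was then at −0.069. The GADD45 transcripts were alike in both properties, with 56.9% GC and 1284 bases for Gadd45b and 59.9% GC and 1071 bases for Gadd45g, against 46.2% and 3145 bases for Mdm2 and medians of 51.6% and 2449 bases.

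**Figure D3:**
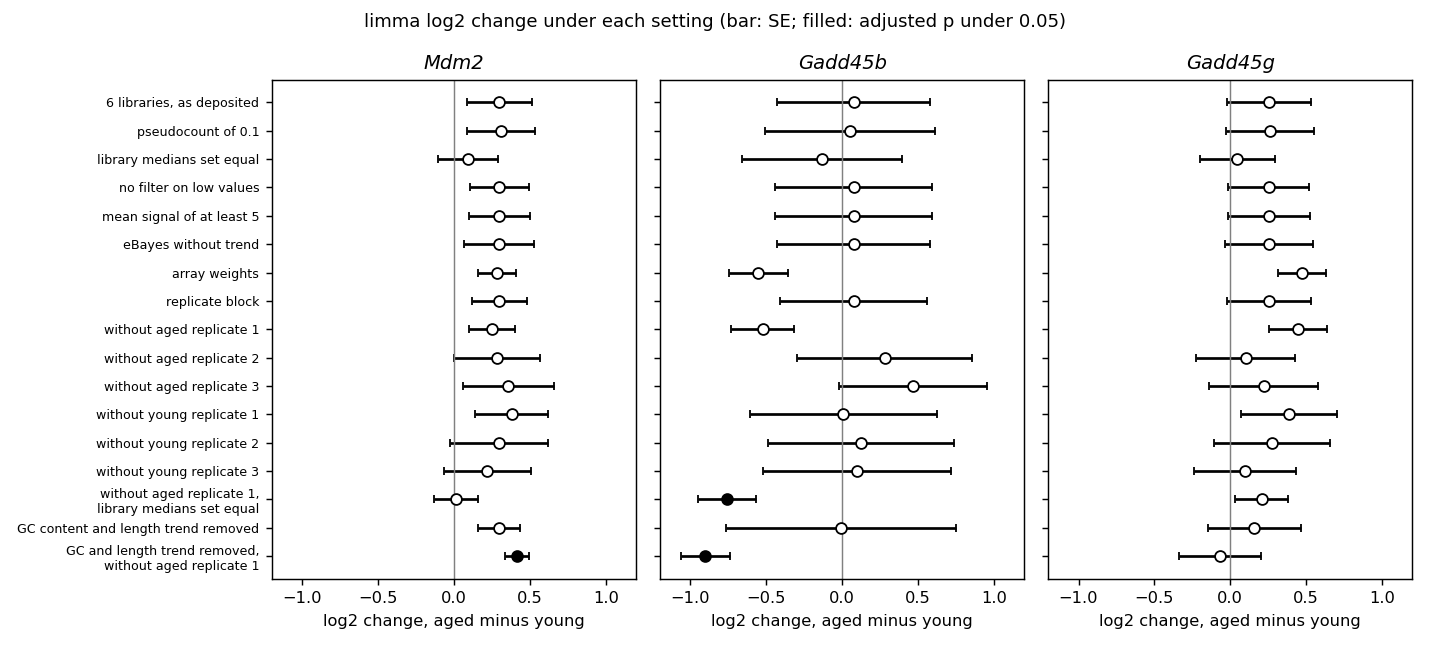
limma log2 change of aged minus young samples (horizontal axis, log2(signal + 1) scale) with its SE for the 3 genes under each setting; filled points have an adjusted p under 0.05. The points of Mdm2 stay between 0.014 and 0.41, those of Gadd45b run from −0.90 to 0.47, and the filled points are 2 of Gadd45b and 1 of Mdm2, all without aged replicate 1.

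Differences between 2 genes within a library do not change when all its log values are shifted by 1 constant, as in setting medians equal, but they do change when a GC and length trend is removed. Mdm2 minus Cdkn1a, both p53 targets, read −0.59, −0.57 and −0.44 for young replicates 1 to 3 and 0.39, −2.02 and −2.06 for aged replicates 1 to 3, on the log2(signal + 1) scale. The young samples lay within 1.11-fold of each other, and the aged samples fell on both sides of them, spread over 5.44-fold. The aged mean minus the young mean was −0.70 (exact two-sided permutation p = 0.4, adjusted p = 0.9 over 3 such differences, where 3 against 3 samples cannot go below 0.1).

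The 2 GADD45 relatives differed within libraries in a like pattern. Gadd45g minus Gadd45b read 1.87, 1.41 and 1.11 for young replicates 1 to 3 and 0.065, 2.36 and 2.50 for aged replicates 1 to 3. Aged replicate 1 was below and the other aged samples were above all young samples, so that the group means differed by only 0.18 (exact permutation p = 0.9, adjusted p = 0.9). Mdm2 minus Gadd45b had the same order, with young values of 1.57, 1.18 and 1.07, aged values of 0.39, 1.93 and 2.16 and means 0.22 apart (exact permutation p = 0.8, adjusted p = 0.9). Without aged replicate 1 the 3 differences were −1.51, 0.97 and 0.77, each with an exact permutation p of 0.2, and 2 against 3 samples cannot go lower.

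**Figure D4:**
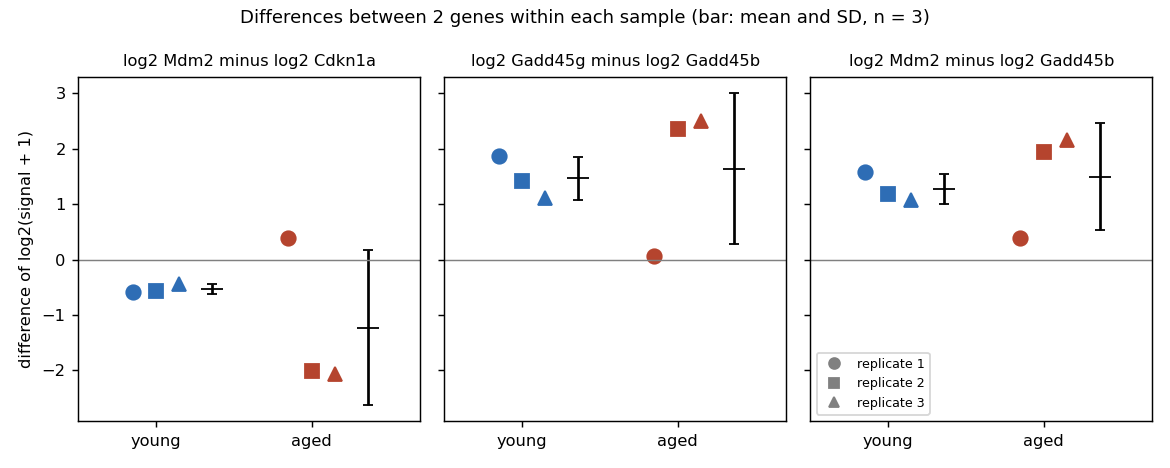
Difference of log2(signal + 1) between 2 genes in each sample (vertical axis), with the mean and SD of each group (n = 3). In each panel aged replicate 1 lies on one side of the young points and aged replicates 2 and 3 on the other.

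The genes whose values ran most alike were sought among the other 65 tested genes by Pearson's r of log2(signal + 1), as a description. Over 6 samples Gadd45b was most like Myc, a growth-promoting transcription factor (r = 0.986), then the mRNA decay factor gene Zfp36l2 (0.956) and the PI3K subunit gene Pik3r1 (0.940). Myc read 4.73, 4.51 and 3.97 for young replicates 1 to 3 and 22.39, 2.83 and 1.67 for aged replicates 1 to 3, so both genes were highest in aged replicate 1 and lowest in the other aged samples. The same 3 genes came first over the 5 samples without aged replicate 1, at 0.928, 0.738 and 0.707.

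Gadd45g was most like Calml4 (r = 0.951), the DNA damage clamp gene Rad1 (0.935) and the CDK inhibitor gene Cdkn2b (0.924) over 6 samples. Calml4 is 1 of 3 genes in the table, with Igfbp2 and Trpv4, from a list of 7 choroid plexus markers. Their summed signal read 860, 414 and 436 for young replicates 1 to 3 and 222, 926 and 960 for aged replicates 1 to 3. It was thus high in aged replicates 2 and 3 and young replicate 1, the samples in which Gadd45g was highest, and its part in the Gadd45g values was not tested. The 3 markers differed among young samples, where the SD of log2(signal + 1) was 0.64 for Igfbp2, 0.62 for Calml4 and 0.13 for Trpv4. The defining choroid plexus marker Ttr is not among the 88 genes, and 0 of 10 neuroblast markers are, so the labelled cell type could not be checked. In tissue of mixed cells, fewer cells of a type and less RNA per cell cannot be told apart.

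Mdm2 was most like Sirt1, a deacetylase gene (r = 0.822), Ppid (0.809) and the cyclin gene Ccna2 (0.788) over 6 samples. Over the 5 samples without aged replicate 1 it was most like Gadd45g, at 0.996, and Gadd45g was most like Mdm2. In those samples both genes had the same order as deposited, from aged replicate 2 through aged replicate 3 and young replicates 1 and 2 to young replicate 3. The summed signal of the 88 genes fell in this same order, at 2992, 2943, 2328, 1979 and 1902. The part of that library level in the r of 0.996 was not tested. With library medians equal the orders differed, with Mdm2 highest in young replicate 1 and Gadd45g in aged replicate 2, barely above young replicate 1. In aged replicate 1 Mdm2 was at its highest and Gadd45g at its second lowest value, and over all 6 samples their r was 0.521. Gadd45b ran against Gadd45g in both sets, with r = −0.61 over 6 and −0.65 over 5 samples.

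**Figure D5:**
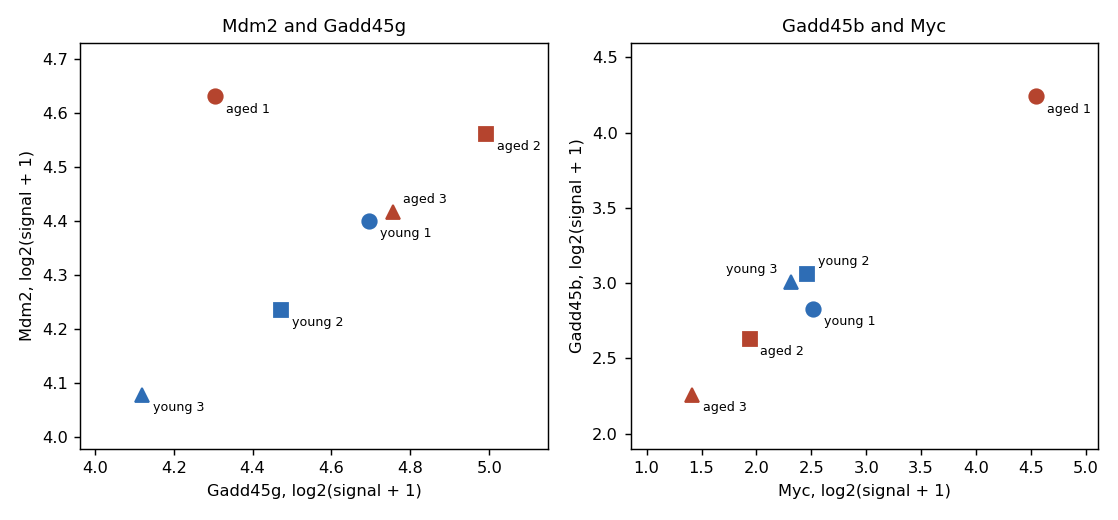
Values in log2(signal + 1) of Mdm2 against Gadd45g (left) and of Gadd45b against Myc (right), 1 point per sample. On the left 5 samples lie along a line and aged replicate 1 lies off it; on the right aged replicate 1 is the highest sample for both genes.

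The 3 members share the deposited KEGG terms for p53 signalling (17 of 88 genes), FoxO signalling (17 genes) and the cell cycle (21 genes). Gadd45b and Gadd45g also carry the terms for apoptosis and MAPK signalling, and Mdm2 is the 1 gene of the table with the term for ubiquitin-mediated proteolysis. Of 24 genes listed as the p53 axis, 6 were tested and 0 passed in either direction, with a median log2 change of 0.28 against 0.12 over all tested genes. Values of these genes are in the order of replicates 1 to 3. Cdkn1a, the cell cycle inhibitor, read 30.75, 26.97 and 21.87 in young and 17.96, 94.63 and 88.04 in aged samples, with aged replicate 1 below and the other aged samples above all young samples. Gadd45a read 6.64, 5.25 and 4.54 in young and 7.36, 6.91 and 3.77 in aged samples, groups that overlap. Without aged replicate 1, 1 of the 6 passed (Cdkn1a, higher), where 22.7% of all tested genes passed, with a median of 0.30 against 0.20. Of the 17 genes with the deposited p53 signalling term, 12 were tested and 0 passed, with a median of 0.14 against 0.12. Without aged replicate 1, 2 of these 12 passed (Cdkn1a and Ccnd3), with a median of 0.21 against 0.20.

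Upstream of p53, 7 genes of DNA damage sensors and kinases were tested and 0 passed, with a median log2 change of 0.21. Rad1 read 6.73, 7.41 and 4.81 in young and 5.91, 11.06 and 8.18 in aged samples. It was the 1 gene of the 7 with aged replicates 2 and 3 above all young samples. That order, with aged replicate 1 not above, was found in 25 of all 66 tested genes (37.9%). Atm, a kinase gene, read 1.88, 1.57 and 1.54 in young and 2.92, 1.56 and 1.61 in aged samples. Atr, a related kinase gene, read 2.84, 1.68 and 1.31 in young and 4.16, 2.00 and 1.40 in aged samples, and Rad50, a DNA repair gene, read 2.62, 1.23 and 1.03 in young and 4.08, 1.80 and 0.92 in aged samples. These 3 were highest in aged replicate 1, and their mean of aged replicates 2 and 3 lay below the young mean. Without aged replicate 1, 4 of the 7, Rad1 among them, had a positive log2 change. The median of the 7 was then 0.074, against 0.20 over all tested genes, and 0 passed, where 22.7% of all tested genes passed.

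Of p38 kinases and the kinases above them, which GADD45 proteins can activate, 3 genes were tested and 0 passed, with a median of 0.046. Mapk12 read 10.51, 13.04 and 15.76 in young and 2.6, 19.74 and 17.85 in aged samples, lowest in aged replicate 1 and highest in the other aged samples. Ccnb2 was the 1 gene of the CDK1 and cyclin B list in the table, and its mean signal was under 1.

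Among the NF-kB and TGF-beta genes known to induce Gadd45b, 3 were tested and 0 passed, with a median of 0.036. Tgfbr1, a TGF-beta receptor gene, read 60.81, 40.36 and 34.37 in young and 163.87, 28.58 and 23.04 in aged samples, the same arrangement as Gadd45b. Rela, an NF-kB subunit gene, had the reverse one, with young values of 49.55, 68.84 and 71.96 and aged values of 34.73, 76.8 and 81.75. Of the PI3K, AKT, FOXO and SIRT1 list, 3 genes were tested and 0 passed, with a median of 0.050. Pik3r1, with young values of 16.85, 14.25 and 13.14 and aged values of 27.14, 11.96 and 10.54, had the arrangement of Gadd45b. Without aged replicate 1, 0 genes passed in any of these 3 lists, where 22.7% of all tested genes passed. Against a median of 0.20 over all tested genes, the lists had medians of 0.45 for the p38 list, 0.099 for the NF-kB and TGF-beta list and −0.27 for the PI3K list.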

How the data were processed

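Per the labels' protocols, RNA was extracted with Trizol from ground tissue and oligo(dT)-selected, then sequenced from circularized single strands. Titles gave the groups and replicate numbers. The deposited values are an expression signal; its unit, normalization, aligner, counting and build are not stated. Beside it, per the file headers, stand a log2 ratio (aged over young), a p-value and a q-value by the authors. The 21 rows of the cell cycle table repeat rows of the senescence table. Only 15 values lie between 0 and 0.1, too few at 2 decimals to read depth from steps.

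Genes with a mean of at least 1 (66 of 88) were fitted as log2(signal + 1) with limma 3.58.1 in R 4.3.3 (eBayes with trend, no covariate), with Benjamini-Hochberg adjustment over all of them at 5%; fold changes of low genes are understated. The fit was also run on simulated data in which both groups had the spread of the young samples. In the deposited data the median SD of log2(signal + 1) was 0.49 in aged and 0.23 in young samples. The simulated data thus do not cover the spread of the aged samples. Differences between genes within a library were compared by an exact permutation test over samples. For 62 of 66 tested genes, GC content and length were those of their longest coding transcript (GENCODE M21). Python 3.11.15 with numpy 2.4.6, pandas 2.3.3 and matplotlib 3.10.9 was used otherwise.

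The members, the gene lists and the rule for named genes were chosen with earlier results of these data known. The rule named the 3 members, list genes and, per member, the 3 genes most alike. Igfbp2 and Trpv4 are named as list markers. A list gene is not reported here. The table held 0 markers of the blood, mature neuron, endothelial, oligodendrocyte, astrocyte, microglia and NK and T cell lists. Alternatives were the replicate number as a block, array weights, eBayes with no trend, a pseudocount of 0.1, equal library medians, a minimum mean of 5 or none, and each library left out. Added after seeing the data were removal of the GC and length trend and, without aged replicate 1, the same or equal medians.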

Additional observations from a re-analysis of the deposited data

How the results depend on the processing

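Over 16 other settings, Mdm2 kept a positive log2 change in each, from 0.014 to 0.41. Every gene of the table has a higher aged mean, which favours that sign. Settings that changed only the filter, the eBayes trend or the block repeated the same estimate of 0.30. Mdm2 passed in 1 setting, at 0.41 without aged replicate 1 and with the GC and length trend removed. Gadd45b changed sign in 6: it was −0.13 with library medians equal, −0.55 with array weights, −0.52 without aged replicate 1, −0.76 without it and with medians equal, −0.0078 with the GC and length trend removed and −0.90 with that trend removed and without aged replicate 1. Gadd45g changed sign in 1, at −0.069 in this last setting. The count of genes past the threshold rose from 0 to 15 with array weights (a fit that stopped short of its convergence tolerance), 15 without aged replicate 1, 9 without it and with medians equal and 6 without it and with the trend removed; the cause was not tested.

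With 1 library left out, the count ran from 0 to 15, Mdm2 from 0.22 to 0.38, Gadd45b from −0.52 to 0.47 and Gadd45g from 0.099 to 0.44. The within-library differences ran from −1.51 to −0.28 for Mdm2 minus Cdkn1a, from −0.25 to 0.97 for Gadd45g minus Gadd45b, which was −0.18 without aged replicate 2 and −0.25 without aged replicate 3, and from −0.11 (without aged replicate 3) to 0.77 for Mdm2 minus Gadd45b.

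Same-numbered aged and young samples share only a number: their deviations from group means correlated across genes at 0.271, 0.0908 and 0.408 for numbers 1 to 3, and aged replicate 2 correlated more with young replicate 3 (0.254). With the replicate number as a block limma called 0 of 66 genes, with Mdm2 at 0.30, Gadd45b at 0.076 and Gadd45g at 0.25, and no within-library difference went below an exact sign-flip permutation p of 0.5. Without known depth no counting interval can be given.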
